A study of Mus musculus with 10 samples.

Results

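The exons described here are 1230 microexons that keep the reading frame and are not among the neural microexons of a separate list by the authors. They were taken from the authors' deposited comparison of mouse neurons with and without cycloheximide, which holds 2455 exons of 3 to 30 nt. An exon was included when it was a cassette exon (one skipped or included whole), had a length divisible by 3, and did not have the coordinates of a listed event. The 1230 exons lay in 958 genes. Their neighbours in the same table were 1029 frame-shifting cassette microexons outside the list, 152 frame-keeping and 17 frame-shifting ones of the list, and 27 exons of another type. No response to cycloheximide entered the choice. The list was drawn up by the authors and carries PSI with and without Qk knockdown in N2A cells. Whether the Qk response shaped it is not known here. Of the 1230 exons, 8 overlapped a listed event with other ends by at least 1 base.

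Polyadenylated RNA was sequenced from 10 mouse samples in 2 experiments. Glutamatergic neurons were differentiated in culture from mouse embryonic stem cells and, on day 7, were left untreated (2 samples) or given 100 uM cycloheximide for 12 h (2 samples). Neuro-2a (N2A) cells, a mouse neuroblastoma line, were transfected for 72 h with a 40 nM siRNA pool against Qk (siQk, 3 samples) or with a non-targeting pool (siNT, 3 samples). Cycloheximide inhibits translation, and Qk encodes Quaking, an RNA-binding regulator of splicing. The neurons and the cell line are both models in culture, and no result here comes from brain tissue.

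Microexons are very short exons that add or remove a few residues of a protein, and many are included mainly in neurons. A microexon whose length is divisible by 3 leaves the downstream reading frame as it was, whereas any other length shifts it. A frame shift commonly brings in a premature stop codon, and transcripts with such stops are broken down by nonsense-mediated decay, a pathway that depends on translation. The neuron comparison therefore asks which microexon isoforms differ when translation is blocked. Inclusion is given as percent spliced in (PSI), the share of transcripts that hold the exon.

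The sequences of 15 of the exons show what these inserts look like. The first 4 had the largest falls and the next 6 the largest rises under cycloheximide among called exons annotated as coding, and the last 5 are further exons of Shank2 and exons called in both experiments. Capitals mark the microexon, and lower case marks the neighbouring exonic bases as spliced in a GENCODE M21 transcript, read 5′ to 3′ on the strand of the gene, with mm10 positions of the microexon. Exons of Adh1 and Chpt1, which rose by more than the last of the 6, are annotated only in transcripts marked for nonsense-mediated decay and are not shown.
Csnk1g1, 24 nt, chr9:66035050-66035073, plus strand: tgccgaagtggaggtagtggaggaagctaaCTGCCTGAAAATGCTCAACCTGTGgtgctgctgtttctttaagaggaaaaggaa
Bicdl1, 12 nt, chr5:115672144-115672155, minus strand: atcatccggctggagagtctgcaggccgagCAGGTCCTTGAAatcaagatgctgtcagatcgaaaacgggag
Shank2, 21 nt, chr7:144408056-144408076, plus strand: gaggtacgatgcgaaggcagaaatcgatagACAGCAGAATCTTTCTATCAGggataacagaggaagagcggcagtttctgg
Fam92b, 6 nt, chr8:120171740-120171745, minus strand: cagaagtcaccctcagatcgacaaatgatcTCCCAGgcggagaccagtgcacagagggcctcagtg
Col13a1, 27 nt, chr10:61905254-61905280, minus strand: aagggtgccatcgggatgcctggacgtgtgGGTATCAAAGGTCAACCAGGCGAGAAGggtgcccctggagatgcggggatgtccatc
Prom1, 27 nt, chr5:44058626-44058652, minus strand: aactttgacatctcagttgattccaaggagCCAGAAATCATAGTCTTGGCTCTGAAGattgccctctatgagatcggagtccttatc
Syne1, 21 nt, chr10:5426255-5426275, minus strand: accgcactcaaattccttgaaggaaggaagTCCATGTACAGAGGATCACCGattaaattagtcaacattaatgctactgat
Pcnt, 21 nt, chr10:76403624-76403644, minus strand: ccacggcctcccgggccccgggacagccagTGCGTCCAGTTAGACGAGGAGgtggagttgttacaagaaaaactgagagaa
Myh14, 24 nt, chr7:44657417-44657440, minus strand: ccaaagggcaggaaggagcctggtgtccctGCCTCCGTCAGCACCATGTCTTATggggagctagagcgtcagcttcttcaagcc
Lama2, 12 nt, chr10:27021461-27021472, minus strand: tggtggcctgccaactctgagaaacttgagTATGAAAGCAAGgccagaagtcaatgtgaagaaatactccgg
Shank2, 9 nt, chr7:144396638-144396646, plus strand: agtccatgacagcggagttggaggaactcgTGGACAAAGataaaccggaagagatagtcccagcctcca
Shank2, 21 nt, chr7:144398241-144398261, plus strand: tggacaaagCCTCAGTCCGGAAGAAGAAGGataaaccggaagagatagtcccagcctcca
Dst, 18 nt, chr1:34296742-34296759, plus strand: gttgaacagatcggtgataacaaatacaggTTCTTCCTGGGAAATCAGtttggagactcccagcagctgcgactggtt
Mark3, 27 nt, chr12:111651958-111651984, plus strand: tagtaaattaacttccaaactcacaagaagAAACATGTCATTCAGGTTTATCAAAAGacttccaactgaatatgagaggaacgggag
Pus7, 18 nt, chr5:23763334-23763351, minus strand: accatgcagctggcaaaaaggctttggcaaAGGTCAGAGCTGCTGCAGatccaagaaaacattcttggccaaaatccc
The 6 nt Fam92b exon is the shortest of them. The 21 nt exon of Shank2 at chr7:144398241-144398261 is preceded by the 9 nt Shank2 exon as its whole upstream neighbour. Both of these exons are followed by the same downstream exon.

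Among the 862 exons with exact ends in GENCODE M21, 453 (52.6%) ended in the bases AG and 675 (78.3%) in G, read on the gene's strand. The shares in the 564 annotated frame-shifting exons outside the list were 48.9% and 76.6%. Of the 86 annotated exons that were lower under cycloheximide, 62.8% ended in AG, as did 9 of the 20 that were higher. The 16 annotated exons of 3 nt read AAG in 6 cases, GTG in 3, AGA in 2 and GAG in 2, with AAA, CAT and CGA once each. The coding frame carried in from upstream was known for 805 exons, of which 371 began between codons, 276 after the first base of a codon and 158 after the second.

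In untreated neurons the exons sat mostly at the ends of the PSI scale. Untreated PSI was under 10% in 516 of them, at least 90% in 416 and between these limits in 298. It was under 2% in 322 and over 98% in 277. Inclusion followed annotation. The 862 exons with exact ends in GENCODE had a median untreated PSI of 88.1%, against 1.96% for the 368 without them. It also followed length, since 75.4% of the 248 exons of 3 nt were under 10% and only 3.63% were at or above 90%, whereas 18.7% of the 187 exons of 30 nt were under 10% and 59.9% were at or above 90%. Only 16 of the 248 exons of 3 nt were annotated, against 187 of 187 at 30 nt.

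Under cycloheximide more of these exons were called lower than higher, and most differed by a few points at most. An exon was called when its PSI in the authors' deposited comparison differed by 10 percentage points or more and their probability of a difference was 0.9 or more. It was met by 118 of the 1230 exons (9.59%), where 9.33% of all 2455 microexons met it. Of these, 96 were lower (7.80%, against 7.13% of all microexons) and 22 were higher (1.79%, against 2.20% of all). The shares of called exons thus lay close to those of the whole table, of which the 1230 are themselves a large part. Of the frame-shifting exons outside the list 2.43% were lower and 2.92% higher. Of the frame-keeping exons of the list 28.3% were lower and 0.66% higher. The median difference over the 1230 exons, treated minus untreated, was -0.08 points, and 75.2% of them were within 5 points. Among the 298 exons from 10 to 90% untreated PSI, 77 (25.8%) were within 5 points.

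**Figure D1:**
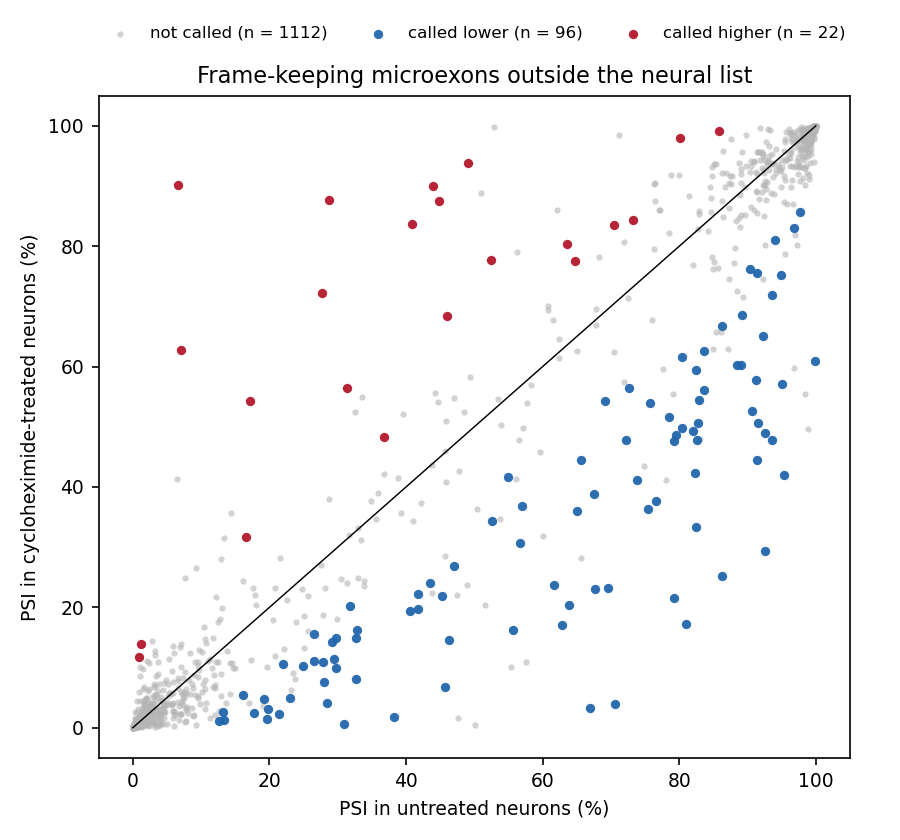
PSI of the 1230 frame-keeping microexons outside the neural list in untreated neurons (x axis, percent) and in neurons given cycloheximide (y axis, percent), as the authors' combined value per condition. Each point is 1 exon, the line marks equal PSI, and the 96 exons called lower (blue) lie below it and the 22 called higher (red) above it.

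Which deposited column is the untreated one was read from the order in the table's name alone, and every direction in the neurons would turn if that reading were wrong. These values combine the 2 samples of each condition, so no spread between replicates can be given. Their read depth is unknown, and the smallest p that an exact permutation test of 2 against 2 samples allows is 0.33. A further 68 exons differed by at least 10 points with a probability under 0.9 (45 lower and 23 higher), and 81 reached the probability with under 10 points (62 lower and 19 higher). Exons just short of the 10 points were in Arfgap1 (-9.72 points), Ppp3ca (-9.87) and Kif21a (the 15 nt exon, -9.90). Exons just past it were in Dst (-10.7), Inpp4a (-10.8) and Pias2 (10.9).

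The balance between falls and rises differed with the untreated PSI. Of the 516 exons under 10%, 4 were called higher and 0 lower. Of the 147 exons from 10 to 50%, 35 (23.8%) were lower and 11 higher, with a median difference of -5.04 points. Of the 151 exons from 50 to 90%, 43 (28.5%) were lower and 7 higher, with a median of -6.48 points. Of the 416 exons at or above 90%, 18 (4.33%) were lower and 0 higher. A PSI near 0 leaves room mainly to rise and one near 100% mainly to fall, and the part of this in the counts was not tested.

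Within the range from 10 to 90%, 78 of the 298 frame-keeping exons outside the list were lower (26.2%) and 18 higher, and the median difference was -5.10 points. The 120 frame-shifting exons outside the list in the same range had 14 lower (11.7%) and 12 higher, with a median of -1.39 points. The 79 frame-keeping exons of the list had 33 lower (41.8%) and 1 higher, with a median of -10.3 points. The 9 frame-shifting exons of the list had 5 lower and 0 higher, with a median of -29.3 points. Over all 515 microexons of the range, 26% were lower and the median was -5.05 points. The frame-keeping exons outside the list were near the whole table, of which they made up 298 of the 515 exons in this range. The frame-shifting exons outside and on the list lay on opposite sides of them. These differences were not tested, since each exon has 1 combined value per condition and exons are not replicates of a treatment.

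**Figure D2:**
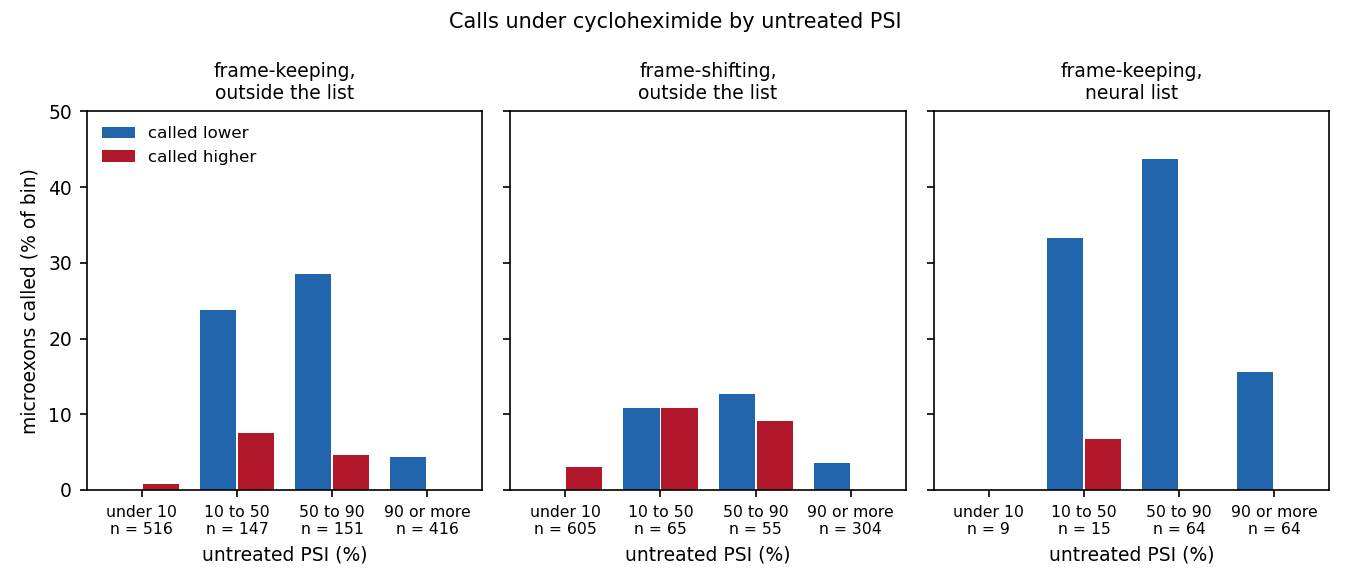
Share of exons called lower or higher under cycloheximide (y axis, percent of exons) in bins of untreated PSI (x axis, percent), for frame-keeping exons outside the list, frame-shifting exons outside the list and frame-keeping exons of the list. In the 2 middle bins the frame-keeping exons outside the list had 23.8% and 28.5% called lower.

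Exons of 9 to 24 nt were called lower more often than the shortest and the longest. The share called lower was 3.63% at 3 nt, 4.55% at 6 nt, 12.1% at 9 nt, 12.3% at 12 nt, 10.4% at 15 nt and 10.5% at 18 nt. At greater lengths it was 9.73% at 21 nt, 11.6% at 24 nt, 7.65% at 27 nt and 5.35% at 30 nt. The ends of this length range also hold the most exons near 0 or near 100%. Among exons from 10 to 90% untreated PSI, 15 of 80 of 3 to 9 nt (18.8%), 20 of 67 of 12 to 18 nt (29.9%) and 43 of 151 of 21 to 30 nt (28.5%) were lower. The 18 exons of 12 nt in that range had 9 lower and 3 higher, with a median of -18.08 points. The medians were 0.73 points for the 21 nt exons and 0.49 points for the 30 nt exons of the same range, and -11.50 points for the 27 nt exons. No steady order by length was seen once the untreated PSI was held to this range.

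**Figure D3:**
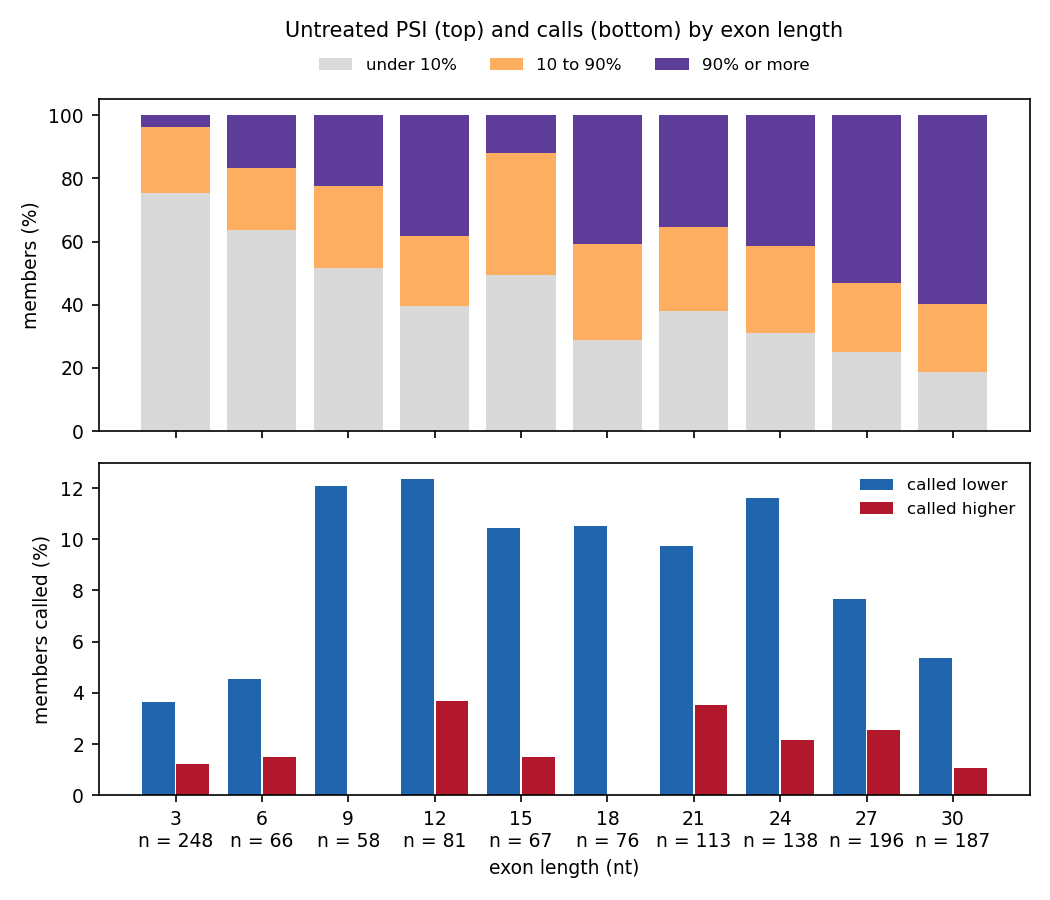
Frame-keeping microexons outside the neural list by exon length (x axis, nt, with the number of exons). The upper bars split each length by untreated PSI (percent of exons) and the lower bars give the percent called lower and higher, with the lowest share of lower calls at 3 nt (3.63%).

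The 15 largest falls took well-included exons to a minor form. Among the 96 exons that fell, 34 went from at least 50% to under 50%, 19 ended under 10%, and the median difference was -23.88 points. The 24 nt exon of Csnk1g1, which encodes a casein kinase, went from 70.5% to 4.01%. The 12 nt exon of Bicdl1, an adaptor in motor-driven vesicle transport, went from 81.0% to 17.3%. In Fam92b the 6 nt exon went from 92.6% to 29.3%. These are the authors' deposited values, with a probability of 1 for each of these 3 exons.

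Shank2, a scaffold protein beneath excitatory synapses, held 3 of the 15. Its 21 nt exon at chr7:144408056-144408076 fell from 66.9% to 3.33% (probability 0.976). The other 21 nt exon, at chr7:144398241-144398261, fell from 79.2% to 21.5%, and the 9 nt exon at chr7:144396638-144396646 fell from 92.6% to 49.0%. The called exons of its relatives were also lower, as were 81.4% of all called exons. The 24 nt exon of Shank3 went from 38.2% to 1.86% and the 24 nt exon of Shank1 from 65.5% to 44.6% (Shank1 was chosen after its values were seen). Another exon of Shank1 was not called.

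The other falls among the 15 were spread over genes with a range of roles. The 21 nt exon of Cadps2, which primes dense-core vesicles for release, went from 86.2% to 25.3%. Kif21a encodes a kinesin, and its 21 nt exon went from 95.3% to 41.9%. The 12 nt exon of Ptprd, a receptor phosphatase that organises synapses, went from 93.5% to 47.8%. Cdh23 encodes a cadherin known from the tip links of hair cells, and its 3 nt exon went from 82.5% to 33.3%. The 30 nt exon of Arhgap21 went from 69.6% to 23.1%.

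The last 4 of them were in Ralgapa1, BC051142, Ccdc163 and Phactr2. The 3 nt exon of Ralgapa1, a regulator of Ral GTPases, was not annotated and went from 62.8% to 17.1%. The 24 nt exon of BC051142 went from 91.4% to 44.5%. The 12 nt exon of Ccdc163, in a 5′ UTR, went from 67.7% to 23.1%. Phactr2 encodes a regulator of protein phosphatase 1 and actin, and its 12 nt exon went from 63.8% to 20.5%.

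Of the 22 exons that rose, 11 went from under 50% to at least 50%, and the median difference was 23.7 points. The largest was a 21 nt exon of Adh1, an alcohol dehydrogenase, at chr3:138279731-138279751, which went from 6.63% to 90.2%. It is annotated only in a transcript marked for nonsense-mediated decay, although the exon itself holds no stop in that frame. The 27 nt exon of Chpt1, an enzyme of phosphatidylcholine synthesis, is also annotated only in such a transcript, holds an in-frame stop and went from 40.9% to 83.7%. These were the only called exons among the 24 annotated solely in such transcripts, where 2 were higher (8.33%, against 1.79% of all 1230) and 0 lower. As a class the 24 did not rise. PSI was up by any amount in 8 and down in 16, the median difference was -0.20 points, and 20 were within 5 points.

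Rises in coding exons came from genes with unlike roles. Col13a1 encodes a transmembrane collagen, and its 27 nt exon went from 28.8% to 87.7%. The 27 nt exon of Prom1, a membrane glycoprotein of cell protrusions, went from 7.12% to 62.7%. Pcnt encodes pericentrin of the centrosome, and its 21 nt exon went from 49.0% to 93.9%. The 12 nt exon of Lama2, a laminin chain of basement membranes, went from 44.9% to 87.6%. The 24 nt exon of Myh14, a non-muscle myosin heavy chain, went from 27.7% to 72.3% with a probability of 0.912, near the limit of the call.

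**Figure D4:**
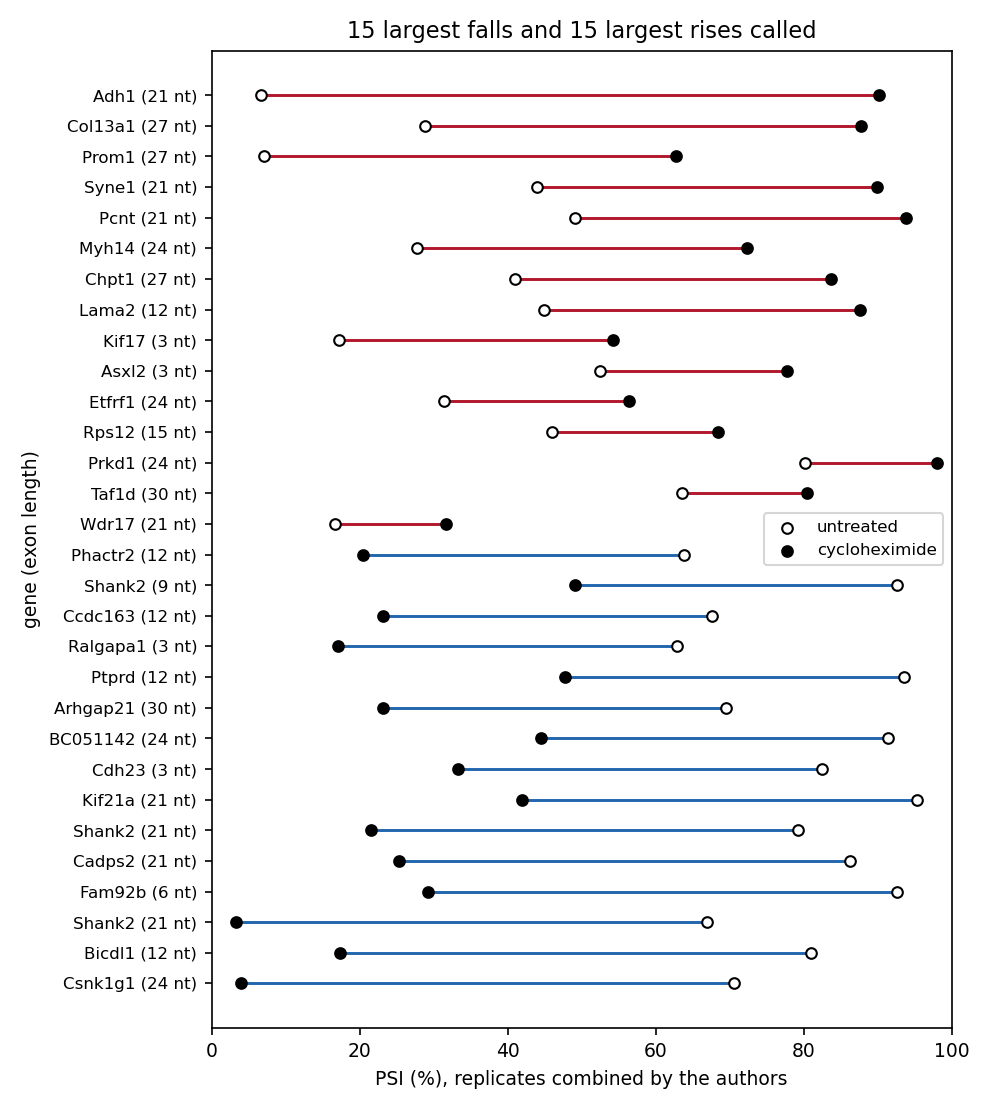
Untreated and cycloheximide PSI (x axis, percent, the authors' combined values) of the 15 largest rises and the 15 largest falls among the called exons, with gene and exon length on the y axis. Each line joins the values of 1 exon, from Adh1 (6.63% to 90.2%) to Csnk1g1 (70.5% to 4.01%).

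The smaller rises among the 15 also came from unlike genes. The 3 nt exon of Kif17, a kinesin of dendrites, was not annotated and went from 17.2% to 54.3% (probability 0.916). The 24 nt exon of Etfrf1, in a 5′ UTR, went from 31.3% to 56.4%, and the 15 nt exon of the ribosomal protein gene Rps12 went from 46.0% to 68.4%. Prkd1 encodes protein kinase D1, and its 24 nt exon went from 80.1% to 98.0% (probability 0.902). In Taf1d, which encodes a subunit of an RNA polymerase I factor, a 30 nt exon went from 63.6% to 80.4%. The 21 nt exon of Wdr17 went from 16.6% to 31.6% (probability 0.902). The other rises from an untreated PSI under 10%, chosen after their values were seen, were in Cacna1b, a presynaptic calcium channel gene (6 nt, 1.15% to 13.9%), and Pias2, a SUMO ligase gene (3 nt, 0.87% to 11.7%).

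Other exons in the middle of the scale had nearly equal values in both conditions. The 6 with the smallest difference from an untreated PSI of 20 to 80% were in Acly, which makes acetyl-CoA for lipid synthesis (43.8% and 43.7%), Cadps2 (15 nt, 33.0% and 33.3%), the collagen gene Col1a2 (45.7% and 45.9%), Ctif (31.65% and 31.95%), the corepressor gene Tle4 (27.55% and 26.96%) and Gpc6, a glypican gene (62.3% and 61.5%). The 15 nt exon of Cadps2 thus stayed within 1 point in the gene whose 21 nt exon fell by 61.0 points.

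Some genes held several called exons. Of the 1230 exons' genes, 161 held at least 2 of the exons and 10 had at least 2 called. In 7 of the 10 every call was lower, namely in Cadps, Cadps2, Clasp2, Nrxn2, Ptprd, Rapgef6 and Shank2. Over all 118 called exons 81.4% were lower, so nothing about shared direction is read from this count. The 27 nt exons of Clasp2, which encodes a microtubule plus-end protein, went from 82.0% to 49.2% and from 82.8% to 50.7%. In Nrxn2, a presynaptic neurexin gene, a 30 nt exon went from 99.8% to 60.9% and a 27 nt exon from 82.8% to 54.4%.

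Asxl2, Nrxn3 and Syne1 had calls in both directions. Asxl2 encodes a chromatin regulator linked to Polycomb, and its called exons were both 3 nt long and lay 4796 nt apart. The one at chr12:3445452-3445454 went from 45.3% to 21.9% and the one at chr12:3450251-3450253 from 52.5% to 77.7%. Their PSI summed to 97.8% in untreated and 99.5% in treated neurons. In Nrxn3, a 27 nt exon went from 70.5% to 83.5% and another 27 nt exon from 23.0% to 4.91%. Syne1 encodes nesprin-1 of the nuclear envelope, where a 21 nt exon went from 43.9% to 89.96% and a 3 nt exon from 24.9% to 10.2%.

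Calls were found mainly among annotated coding exons. Of the 862 annotated exons, 86 were lower and 20 higher, and of the 368 others 10 were lower and 2 higher. Within 10 to 90% untreated PSI the lower calls were 69 of 236 annotated and 9 of 62 other exons. Among annotated exons, 764 were coding (82 lower and 16 higher), 23 lay in 5′ UTRs (2 lower and 1 higher), and 65 were in transcripts of other kinds (0 lower and 3 higher). Only 9 exons held an in-frame stop codon in the frame carried in from upstream, while 799 were open. Beside Chpt1, the called one was the 18 nt exon of Rps24, a ribosomal protein gene, which fell from 90.6% to 52.7%. The Rps24 exon is annotated as partly coding and partly UTR, so its stop need not be a premature one.

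Introns beside the exons called in either direction had longer medians than those beside exons not called. From 10 to 90% untreated PSI, the 69 annotated exons called lower had median introns of 1952 nt upstream and 2372 nt downstream. The 150 exons of that range not called had medians of 1547.5 and 1556.5 nt, and the 17 called higher had 2101 and 2088 nt. The 411 annotated exons at or above 90% had 1144 and 949 nt. These medians are descriptions without a test, and intronic sequence was not analysed here.

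Each of 8 lists of genes held a larger share of called exons than the 1230 exons as a whole. The lists were written from general knowledge, with earlier results of these data known, and they share genes. In the list of synaptic and adhesion genes, 21 of 81 exons were called (25.9%, 19 lower and 2 higher), with a median of -2.39 points, against 9.59% and -0.08 points over all 1230. In the list of cytoskeletal and motor genes, 12 of 49 were called (24.5%, 10 lower and 2 higher), with a median of -0.65 points. The 954 exons of genes in no list had 60 called (6.29%, 45 lower and 15 higher). Held to 10 to 90% untreated PSI, 16 of 38 synaptic exons were lower and 2 higher (median -10.5 points), where 78 of 298 were lower over all the exons. In the same range the lower calls were 6 of 11 in vesicle traffic genes, 4 of 10 in channel and transporter genes, 4 of 10 in signalling genes, 8 of 21 in cytoskeletal genes, 5 of 18 in autism-associated genes, 2 of 7 in chromatin genes and 2 of 4 in RNA-processing genes.

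The other lists had fewer exons. Of 36 exons in vesicle traffic genes, 7 were called (19.4%), all of them lower, among them the 9 nt exon of Ap1g1, a clathrin adaptor subunit gene (91.3% to 57.7%), the 18 nt exon of Cadps (79.3% to 47.7%) and that of Tbc1d24 (72.2% to 47.9%). Of 39 exons in channel and transporter genes, 7 were called (17.9%, 6 lower and 1 higher). The 12 nt exon of Kcnma1, a calcium-activated potassium channel gene, went from 82.3% to 42.3%, and the ryanodine receptor genes Ryr3 (15 nt, 55.6% to 16.2%) and Ryr2 (24 nt, 29.7% to 14.8%) and the potassium channel gene Kcnh7 (88.5% to 60.2%) were also lower. Of 44 exons in autism-associated genes, 8 were called (18.2%, 6 lower and 2 higher), with the exons of Shank2 and Shank3 the largest.

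Signalling genes held 30 exons, of which 5 were called (16.7%, 4 lower and 1 higher). Both called exons of Rapgef6, an exchange factor for Rap GTPases, fell, from 89.2% to 68.6% (24 nt) and from 57.0% to 36.8% (15 nt). Chromatin and transcription genes held 23, of which 4 were called (17.4%, 3 lower and 1 higher). The unannotated 6 nt exon of Hdac9, a histone deacetylase gene, went from 95.03% to 57.1%, and the 27 nt exon of the corepressor gene Ncor1 from 52.5% to 34.4%. RNA-processing genes held 13, of which 2 were called (15.4%), both lower. They were the 18 nt exon of Pus7, a pseudouridine synthase gene (67.5% to 38.9%), and the 21 nt exon of Eif4g3, a translation initiation factor gene (83.7% to 56.0%).

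The N2A cells give a second readout of the same exons, with values per sample. The exon-event reads ran from 26595944 to 80481173 per sample. Coverage of Qk was 82.5 to 90.8 CPM (counts of exon-event reads scaled to the sample total) in the siNT samples and 8.17 to 13.0 in the siQk samples. Of 10 neuroblast marker genes, 9 were in the table and each was above 1 CPM in every sample. Summed marker coverage stayed at or below 4.96 CPM for oligodendrocytes, 3.52 for fibroblasts, 0.217 for astrocytes, 0.188 for microglia and 0.118 for pluripotent cells. The astrocyte markers Aqp4, Slc1a3 and S100b, the oligodendrocyte markers Mog and Mag, the microglial marker P2ry12, the fibroblast marker Lum and the stem cell markers Pou5f1 and Zfp42 were at 0 in every sample. The neuron table holds no expression values, so the identity of the neurons could not be checked against markers.

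Of the 1230 exons, 676 matched an N2A exon event by coordinates, and 371 of these had at least 10 reads in each sample. Mean PSI was under 2% in 75 and over 98% in 169, which left 127 exons for the test. Knockdown of Qk changed 8 of the 127 (6.30%), with 6 higher and 2 lower. Over all 12930 cassette exons tested the share was 1.18% (0.750% higher and 0.425% lower), and over the 483 tested cassette exons of 3 to 30 nt it was 7.04%. The median difference of the 127, siQk minus siNT, was 0.96 points, against 0.04 points over all exons and 2.04 points over those of 3 to 30 nt. The share called was thus above that of exons of every length and near that of short exons. A change required an adjusted p under 0.05 (limma on log2 inclusion over exclusion reads, n = 3 per group) and 10 points of mean PSI. Each of the 8 rested on at least 53 reads in every sample. In simulated data with the replicates' estimated spread, the test recovered 23% of exons changed by 25 points. Those exons were of any length and came from the middle of the PSI scale, so the rate for the 127 exons is not known. The 119 exons not called therefore cannot be read as unchanged.

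Ank2 encodes ankyrin-B, which ties membrane proteins to the spectrin skeleton, and its 12 nt exon (chr3:126979256-126979267) had the largest difference in PSI points among the 8, while Mark3 had the largest on the log2 ratio (-4.90). The PSI of the Ank2 exon was 32.3%, 20.2% and 23.1% in the siNT samples and 86.2%, 81.5% and 74.9% in the siQk samples. The groups did not overlap, and every siQk sample was above 70%. The log2 ratio was 3.66 higher (SE 0.39, limma adjusted p = 0.00102). In the neurons the same exon was at 35.6% untreated and 34.6% with cycloheximide.

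Mdm1, a gene for a microtubule-binding protein of centrioles, had a 30 nt exon (chr10:118156834-118156863) at 39.1%, 40.1% and 46.0% in siNT and 77.2%, 75.6% and 79.6% in siQk. The samples of each group lay close together and the means were 41.7% ± 3.73 (SD, n = 3) and 77.4% ± 2.01 (SD, n = 3), with a limma adjusted p of 0.000198. In neurons it was at 39.3% and 35.7%, near the siNT level. The 30 nt exon of Arfgap1, which encodes an activator of the Arf1 GTPase, was at 46.7%, 52.2% and 44.1% in siNT and at 86.1%, 81.9% and 81.8% in siQk (limma adjusted p = 0.00358). In untreated neurons it was at 96.7%, above every N2A sample.

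Dst encodes dystonin, a linker of cytoskeletal filaments, and its 18 nt exon was called in both experiments in opposite directions. PSI was 61.4%, 57.1% and 62.6% in siNT and 88.5%, 93.1% and 88.3% in siQk, without overlap (limma adjusted p = 0.00499). In neurons it fell from 13.2% to 2.54%. Pus7 was also higher in siQk and lower with cycloheximide. Its 18 nt exon was at 26.8%, 24.7% and 31.9% in siNT and 44.3%, 51.6% and 49.3% in siQk (limma adjusted p = 0.0221), and at 67.5% and 38.9% in neurons. The Pus7 change was lost without siNT sample 1 or 2 or siQk sample 2 or 3 (limma adjusted p from 0.0941 to 0.123).

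Mark3, a kinase gene of microtubule regulation and polarity, was lower in both. Its 27 nt exon was at 15.4%, 12.5% and 12.8% in siNT and at 0%, 1.51% and 0.32% in siQk, where it was nearly skipped (limma adjusted p = 0.00701). In neurons it fell from 26.5% to 11.1%. The change with siQk was lost without siNT sample 2 (limma adjusted p = 0.0556). Dst, Mark3 and Pus7 were the exons called in both experiments, 3 of the 31 tested in N2A among the 118 called in neurons. Of all 127 tested exons 6.30% were called with Qk, so nothing about shared or separate exons is read from this count.

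The last of the 8 were in Kifc3 and Mroh1. The 27 nt exon of Kifc3, a kinesin gene, is annotated as partly coding and partly UTR, and its in-frame stop need not be premature. Its PSI was 71.5%, 65.5% and 69.3% in siNT and 91.5%, 94.8% and 96.8% in siQk (limma adjusted p = 0.00738). The change was lost without siNT sample 2 (limma adjusted p = 0.0663), and in neurons the exon was at 99.3% and 99.5%. The 27 nt exon of Mroh1 was at 91.3%, 81.6% and 87.1% in siNT and at 63.8%, 72.3% and 70.4% in siQk (limma adjusted p = 0.0473). The groups did not overlap, but the change was lost without any 1 of siNT samples 1 and 3 and siQk samples 1, 2 and 3 (limma adjusted p from 0.0950 to 0.164). Mroh1 was at 3.63% and 6.18% in neurons, far under both N2A groups, though PSI was computed separately for the neurons.

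**Figure D5:**
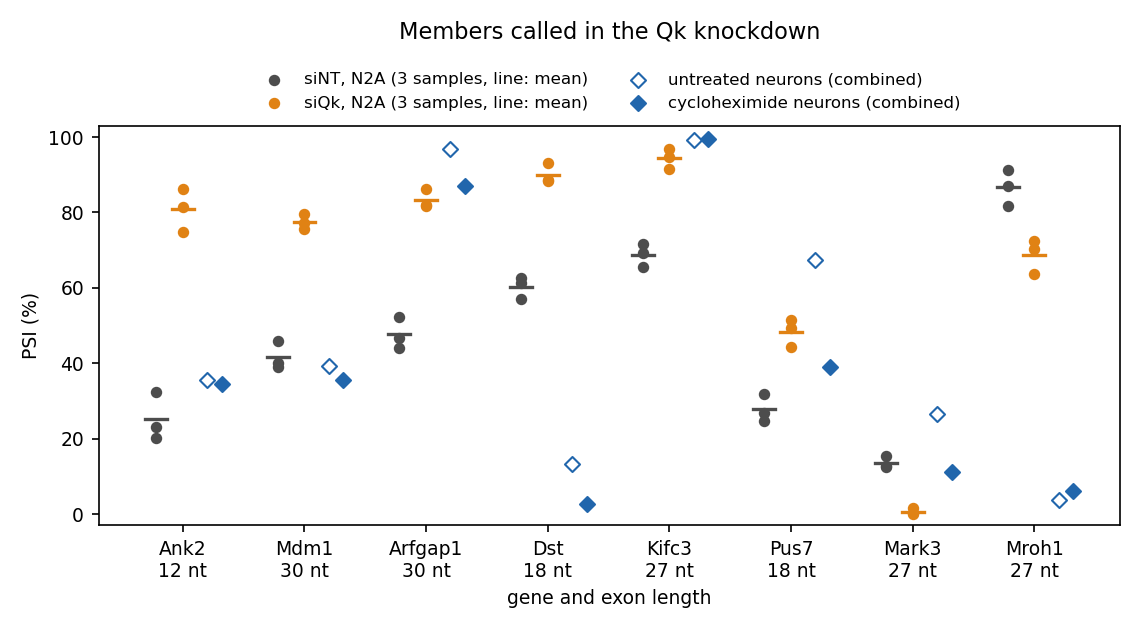
PSI (y axis, percent) of the 8 exons changed by Qk knockdown (x axis, gene and exon length). Dots are the 3 siNT and 3 siQk samples of N2A cells with a line at the mean, and diamonds are the authors' combined values of untreated and cycloheximide-treated neurons, as for Dst, which rose with siQk and fell from 13.2% to 2.54% with cycloheximide.

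Levels in the neurons and the cell line were close mainly for exons near 0 or 100%. The tables were made separately and in different formats, so levels are set side by side without a test. Of 371 exons with both values, 269 (72.5%) were within 10 points between untreated neurons and the siNT mean, 23 were at least 50 points higher in neurons and 21 at least 50 points lower. Some stood at opposite ends, as in Cyth2 (3 nt, 97.6% in untreated neurons and 0.02% in siNT) and Fuca1 (15 nt, 0.20% and 100%). A difference between the cells and one in how PSI was computed cannot be told apart. Of the 84 with an untreated neuron PSI from 10 to 90%, 18 (21.4%) were within 10 points. Among the exons that fell with cycloheximide, the N2A level was mostly the lower one. Of the 37 with an N2A value, 29 were lower in siNT than in untreated neurons. The median PSI of the 37 was 69.6% in untreated neurons, 36.8% with cycloheximide and 18.2% in siNT. Whether called or not, the 42 exons with an untreated neuron PSI from 10 to 50% had a median siNT PSI of 15.9%. The 42 from 50 to 90% had one of 59.3%. The share lower in siNT was not counted over all exons, so nothing particular to the 37 is read from it. Untreated neuron values chose these 37 in part, since the call needs a high enough starting PSI.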

How the data were processed

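The authors deposited the neuron comparison as a Whippet-format table, per the file headers, with PSI as a fraction for each condition (replicates combined), a PSI difference score and a probability as a fraction. The name of that table lists the control before cycloheximide, and its columns were read in that order, which the file itself does not state. For N2A, per the file headers, the authors deposited PSI in percent per sample and another kind of value, a quality cell holding the inclusion and exclusion reads. The aligner and splicing caller are not given in the sources used here, and the build, per the submitters' processing notes, is mm10. Per the labels, libraries were stranded with long inserts and replicates are biological.

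All PSI values are printed in percent. A neuron exon was called at 10 points and a probability of 0.9, which returns the 229 exons of the authors' filtered table. N2A exons entered with 10 reads in each sample and a mean PSI from 2 to 98, and inclusion over exclusion reads (0.5 added to both, log2) were compared with limma 3.58.1 in R 4.3.3 (robust, variance trend, two-sided, Benjamini-Hochberg over 12930 cassette exons). The test was run on simulated data with 200 of the 12930 exons changed by 25 points. The 200 were of any length and drawn from the middle of the PSI scale. With 1 spread for all exons, estimated from the real replicates (intraclass correlation 0.0123), 23% of the changed exons were recovered and 0 unchanged exons were called. A smaller spread set by hand (0.00498), tried because a larger one had recovered few exons, gave 70%. Such reads can include PCR copies. Deviations of same-numbered siNT and siQk samples from their group means correlated at 0.139, 0.019 and 0.116, so numbers were not taken as pairs. Coverage per gene is the sum of its exon-event reads scaled to the sample total (CPM), and reads serving several events count more than once. Annotation and sequence came from GENCODE M21. Tables and figures used Python 3.11.15, pandas 2.3.3 and matplotlib 3.10.9.

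Named exons were the 15 largest called rises and falls, the 6 smallest differences, up to 4 called exons per gene list, called exons with a stop, and all exons called with Qk. Further exons, such as those of genes with several calls or just beside the call limit, were chosen after their values were seen. The exons and lists were chosen with earlier results of these data known. For the neurons, alternatives covered the call limits, annotation, the range of untreated PSI, repeated entries of an exon and overlap with listed events. For N2A they covered the call limits, filter on mean PSI, read minimum, pseudocount, weights, PSI scale, replicate block and leaving out each sample. Intronic motifs and splice sites were not analysed here.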

Additional observations from a re-analysis of the deposited data

How the results depend on the processing

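With a limit of 20 points the lower calls under cycloheximide numbered 60 and the higher calls 12, in place of 96 and 22. Under the other limits on difference, probability, annotation and untreated PSI, lower calls ran from 84 to 131 and higher calls from 16 to 33. With 15 points and no p-value, 18 exons were counted with Qk knockdown in place of 8. Leaving out each N2A sample in turn gave 5 to 7 calls, with 5 without siNT sample 2. The replicate block gave 7 calls, 6 of them higher, and lost Mroh1 (limma adjusted p = 0.0651), as did limma on PSI itself (0.102). By deviations from their group means, same-numbered samples did not all correlate best with each other. No named exon changed direction under the alternatives run. For the neurons these were other limits and filters, or another choice among repeated entries of an exon. Other limits and filters on the same combined values cannot change a direction, so nothing about its stability in the neurons is read from them. The neuron values have no replicates and unknown depth, so their precision cannot be given. In N2A, 305 matched exons had fewer than 10 reads in some sample and were not tested.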

Other observations

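Collagen genes, chosen after their values were seen, held 56 of the 1230 exons in 16 genes. Collagens have a triple helix built from a repeat of 3 residues, and many of their exons are whole numbers of that repeat. Of the 56 exons, 45 had a length divisible by 9 nt (80.4%, against 26.8% of all 1230), and 40 were 27 nt long. All 56 were annotated, 46 had an untreated PSI of at least 90% and 10 one from 10 to 90%, and only the exon of Col13a1 was called. The gene with the most exons was BC051142, with 22 (12 of them from 10 to 90%), of which only the exon described above was called. Of all 1230 exons 9.59% were called, with 4.33% at or above 90% and 32.2% from 10 to 90%. These differences were not tested.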
